A study of Mus with 16 samples.

Results

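The junctophilins *Jph1*, *Jph2*, *Jph3*, and *Jph4*, together with *Jsrp1*, were examined in the forebrain (cortices and hippocampi) of mice at postnatal day 6 (P6). These are 5 of the 54219 Ensembl genes in the count table, and all 5 were among the 17866 genes that passed the filter on low counts. They were selected on the counts of *Jph2* and *Jsrp1* in the genotype groups, with earlier results of these data known, as muscle genes to be set beside their neuronal paralogs. The levels and fold changes of the members are therefore given as a description in every comparison of the groups. Calls of members are counted only beside the share of all genes called, and they support nothing. The 4 groups were wild-type (WT) males, *Kdm5c*-KO males with a hemizygous deletion, WT females, and *Kdm5c*-HET females with a heterozygous deletion, with 4 animals each. *Kdm5c* is an X-linked gene for an enzyme that removes methyl marks from lysine 4 of histone H3. The allele was made by Cre-mediated deletion of a pair of exons and was kept on a mixed C57BL/6J and 129S1/SvImJ background. The animals came from 3 litters, and the labels do not assign animals to litters, so p-values measure only the spread between these animals. *Kdm5c* itself is not paired with an identifier in the tables used, so its expression is not analysed here.

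Junctophilins are anchors that hold the plasma membrane close to the endoplasmic reticulum. Repeats in their N-terminal part bind the plasma membrane, and a C-terminal segment sits in the membrane of the reticulum. In striated muscle this arrangement, called the triad or the dyad, lets voltage-gated calcium channels act on ryanodine receptors, the calcium release channels of the store. *Jph1* is known from skeletal muscle and *Jph2* from heart, skeletal, and smooth muscle, whereas *Jph3* and *Jph4* are the junctophilins of neurons. *Jsrp1* encodes a protein of the junctional sarcoplasmic reticulum of skeletal muscle that binds the calcium channel of the T-tubule and calsequestrin, the calcium buffer of the store. It is not a junctophilin by sequence and is grouped with them here for its place at the triad.

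Each library held between 21513783 and 30063352 counts. The letter D or E in each sample label is not explained by the labels, and it is given with the animal's number (WT male 2D). All the RNA came from whole tissue, so a change in the number of cells of a type and a change in RNA per cell cannot be told apart. Of the marker genes listed for the tissue, 8 of 53 could be matched to an identifier. Among these, *Rbfox3*, a gene of mature neurons, ranged from 216 to 275 CPM (counts scaled to library size after TMM normalization), and *Emx1*, a regulator of the dorsal forebrain, from 27.4 to 41.0 CPM. *Ttr*, the thyroid hormone carrier made by choroid plexus, had 1361 to 5849 counts in 6 animals (WT males 2D and 5D, WT females 1D and 3D, *Kdm5c*-HET females 8E and 9E) and 6 to 125 counts in the other 10. These 6 libraries stand apart in that marker and include no *Kdm5c*-KO male, so results are also given without them. *Aqp1*, another matched marker of choroid plexus, followed this split in WT animals, with 88 to 105 counts against 16 to 26. It did not in *Kdm5c*-HET females, where 9D (17 counts of *Ttr*) had 67 counts of *Aqp1* and 9E had 24. The split therefore rests on *Ttr* alone.

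*Jph2* (ENSMUSG00000017817) encodes the junctophilin of heart, which also serves skeletal and smooth muscle. It lies at chr2:163336242-163398049 (GRCm38.p6, the mm10 build), and the RefSeq annotation places the long noncoding RNA gene *Gm35750* within that span. *Jph2* was expressed at a low level in every animal. In WT males it was 1.34 (1E), 1.495 (2D), 1.41 (5D), and 1.30 (7D) CPM, and in *Kdm5c*-KO males 2.14 (2E), 2.26 (3E), 2.497 (4D), and 2.95 (6D) CPM. Every *Kdm5c*-KO male was above every WT male, as for 5.04% of all genes. In WT females the values were 1.04 (1D), 0.925 (3D), 0.917 (4E), and 0.657 (5E) CPM, and in *Kdm5c*-HET females 1.45 (6E), 1.90 (8E), 2.01 (9D), and 1.91 (9E) CPM. Every *Kdm5c*-HET female was likewise above every WT female, as for 2.78% of all genes.

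The mean of *Jph2* was 1.39 ± 0.0862 CPM for WT and 2.46 ± 0.357 CPM for *Kdm5c*-KO males (SD, n = 4 each). It was 0.885 ± 0.162 CPM for WT and 1.82 ± 0.251 CPM for *Kdm5c*-HET females (SD, n = 4 each). *Jph2* had a Log2FC of 0.82 (standard error 0.186, 95% interval 0.43 to 1.21) in males and 1.02 (standard error 0.199, 95% interval 0.61 to 1.44) in females. These correspond to 1.77-fold and 2.03-fold higher levels in the mutants. Without the 6 animals rich in *Ttr* the Log2FC was 0.90 in males and 1.12 in females, and neither passed the threshold used for calls. That fit kept 2 WT males, 2 WT females, and 2 *Kdm5c*-HET females, and it called 224 genes in males and 33 in females, against 937 and 91 with all animals. The male Log2FC minus the female was -0.20 (standard error 0.271), and its 95% interval, -0.77 to 0.37, includes 0. With any 1 animal left out this difference was between -0.2957 and -0.08684. Ordered by mean, *Kdm5c*-KO males came first, followed by *Kdm5c*-HET females, WT males, and WT females. *Kdm5c*-KO males were all above *Kdm5c*-HET females, from whom they differ in both sex and genotype, as for 3.72% of all genes. Every WT female was below every WT male, as for 5.32% of all genes. *Kdm5c*-HET females overlapped with WT males, because *Kdm5c*-HET female 6E (1.45 CPM) was below WT male 2D (1.495 CPM).

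*Jsrp1* (ENSMUSG00000020216, chr10:80808494-80813741) had the fewest counts of the members in sum. Its product is the triad protein that links the T-tubule calcium channel with calsequestrin. WT males had 15 (1E), 8 (2D), 20 (5D), and 23 (7D) counts, and *Kdm5c*-KO males 41 (2E), 42 (3E), 51 (4D), and 73 (6D). WT females had 10 (1D), 4 (3D), 0 (4E), and 6 (5E) counts, and *Kdm5c*-HET females 13 (6E), 36 (8E), 36 (9D), and 27 (9E). In either sex the mutants were all above the WT animals, as for 1.16% of all genes. The 0 counts of WT female 4E allow up to 3 counts, or 0.125 CPM, which covers counting error only. The 4 WT females held 20 counts of *Jsrp1* together, and the 4 *Kdm5c*-HET females 112.

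In CPM, the mean of *Jsrp1* was 0.678 ± 0.299 for WT and 2.03 ± 0.636 for *Kdm5c*-KO males (SD, n = 4 each). For females it was 0.184 ± 0.147 in WT and 1.13 ± 0.424 in *Kdm5c*-HET animals (SD, n = 4 each). *Jsrp1* had a Log2FC of 1.59 (standard error 0.412, 95% interval 0.73 to 2.45) in males and 2.56 (standard error 0.513, 95% interval 1.49 to 3.63) in females. The WT mean was lower in females, and the mutant mean was higher in *Kdm5c*-KO males. Without the 6 animals rich in *Ttr* the Log2FC was 1.23 in males and 2.86 in females, with neither called. The male Log2FC minus the female was -0.96 (standard error 0.67, 95% interval -2.36 to 0.44). With any 1 animal left out this difference was between -1.454 and -0.5905, and without the 6 animals rich in *Ttr* it was -1.63. The groups had the same order as for *Jph2*. *Kdm5c*-KO males were again all above *Kdm5c*-HET females (3.72% of all genes), whereas *Kdm5c*-HET females overlapped with WT males and WT males with WT females.

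**Figure D1:**
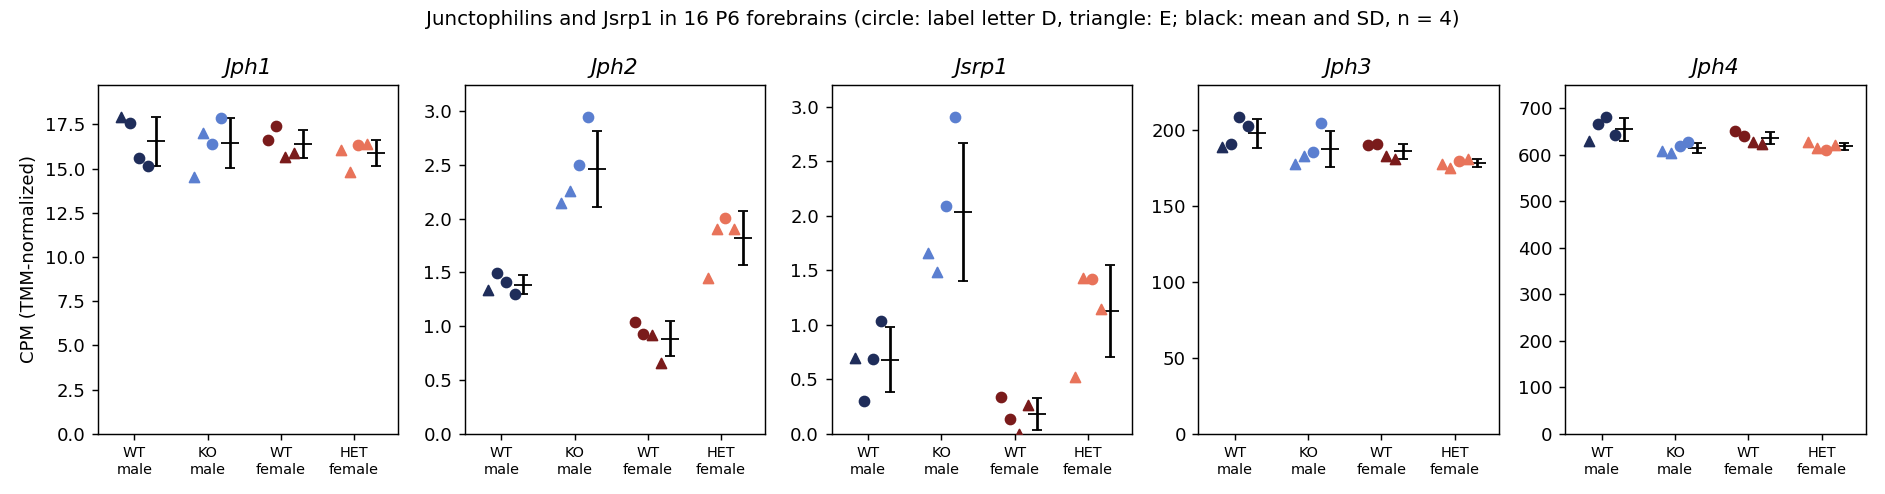
CPM (vertical axis, TMM-normalized, starting at 0 with its own scale for each gene) of *Jph1*, *Jph2*, *Jsrp1*, *Jph3*, and *Jph4* in each of the 16 animals by group, with circles for label letter D, triangles for E, and the mean and SD in black. The mutants of either sex sit above their WT animals for *Jph2* and *Jsrp1*, while for *Jph1* the groups overlap between 14.5 and 17.9 CPM and for *Jph3* between 175 and 209 CPM.

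Within the mutant groups the orders of *Jph2* and *Jsrp1* were alike in part. Among *Kdm5c*-KO males, 6D had the highest level of either gene (2.95 CPM of *Jph2* and 2.91 CPM of *Jsrp1*) and 4D the next. *Jph3*, *Jph4*, and *Acta1*, the actin of skeletal muscle, also had their highest level in 6D and the next in 4D, so this order is not particular to the pair. Since 4D and 6D are the D animals of the group, the order of animals and a difference between the letters cannot be told apart. Among *Kdm5c*-HET females, 6E had the lowest level of either gene (1.45 CPM of *Jph2* and 0.522 CPM of *Jsrp1*), but *Jph2* was highest in 9D and *Jsrp1* in 8E. In WT males the orders differed, with the highest *Jph2* in 2D, which had the lowest *Jsrp1*. Groups of 4 animals are too few for a correlation within a group.

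**Figure D2:**
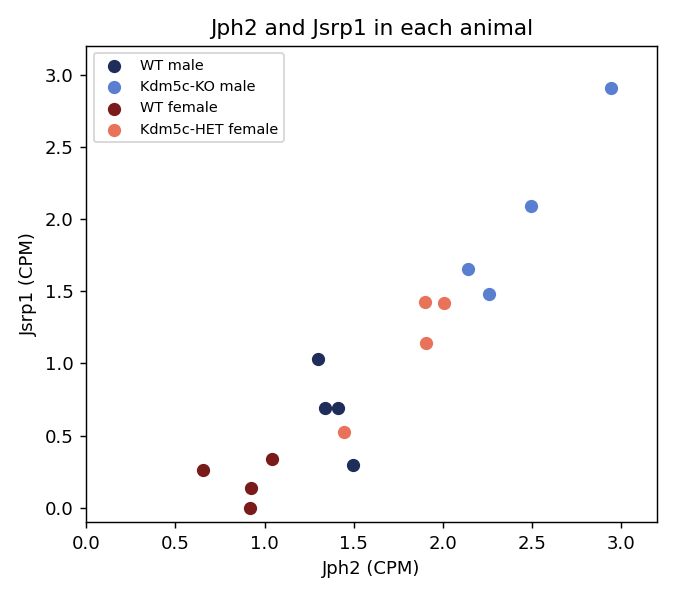
*Jsrp1* (vertical axis, CPM) against *Jph2* (horizontal axis, CPM), 1 point for each of the 16 animals, colored by group. WT females have the lowest *Jph2* and overlap with WT males in *Jsrp1* (0.335 CPM in WT female 1D and 0.299 CPM in WT male 2D), *Kdm5c*-KO males are highest on both axes, and *Kdm5c*-HET female 6E lies among the WT males at 1.45 CPM of *Jph2* and 0.522 CPM of *Jsrp1*.

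The values are also given by label letter, as a description. Every mutant was above every WT animal of its sex for *Jph2* and *Jsrp1*. The same order within a letter therefore follows from that and is no separate check. Among D animals, *Jph2* was between 1.30 and 1.495 CPM in 3 WT males and between 2.497 and 2.95 CPM in 2 *Kdm5c*-KO males. Among E animals it was between 0.657 and 0.917 CPM in 2 WT females and between 1.45 and 1.91 CPM in 3 *Kdm5c*-HET females. *Jsrp1* was at most 1.03 CPM in the D WT males and at least 2.09 CPM in the D *Kdm5c*-KO males, and at most 0.263 CPM in the E WT females and at least 0.522 CPM in the E *Kdm5c*-HET females. The remaining subsets, E males and D females, have 1 animal in 1 of their groups. There, E males had 1.34 CPM of *Jph2* in the WT animal and 2.14 and 2.26 CPM in the *Kdm5c*-KO animals, and the D *Kdm5c*-HET female had 2.01 CPM against 0.925 and 1.04 CPM in D WT females.

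*Jph1* (ENSMUSG00000042686, chr1:16942104-17097922), the skeletal muscle junctophilin, overlapped between the genotypes in either sex. Its span overlaps the long noncoding RNA gene *Gm46085* at the upper end. *Jph1* was 17.9 (1E), 17.6 (2D), 15.6 (5D), and 15.2 (7D) CPM in WT males and 14.5 (2E), 17.0 (3E), 16.4 (4D), and 17.8 (6D) CPM in *Kdm5c*-KO males, so that the groups overlap over nearly their whole range. WT females had 15.7 to 17.4 CPM (median 16.25) and *Kdm5c*-HET females 14.8 to 16.4 CPM (median 16.2). The Log2FC was -0.010 (standard error 0.0769, 95% interval -0.17 to 0.15) in males and -0.046 (standard error 0.0770, 95% interval -0.21 to 0.11) in females.

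The neuronal junctophilins had far larger counts and narrower intervals. *Jph3* (ENSMUSG00000025318, chr8:121730559-121791083), the gene in which a repeat expansion causes a disorder like Huntington disease in people, had 4094 to 6062 counts. It was 189 (1E), 191 (2D), 209 (5D), and 203 (7D) CPM in WT males and 178 (2E), 183 (3E), 186 (4D), and 205 (6D) CPM in *Kdm5c*-KO males. WT females had 190 (1D), 191 (3D), 183 (4E), and 181 (5E) CPM, and *Kdm5c*-HET females 178 (6E), 175 (8E), 180 (9D), and 181 (9E) CPM. The mutants overlapped with the WT animals in either sex. The Log2FC was -0.076 (standard error 0.0442, 95% interval -0.17 to 0.016) in males and -0.061 (standard error 0.0443, 95% interval -0.15 to 0.031) in females.

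*Jph4* (ENSMUSG00000022208, chr14:55106826-55116935), the other junctophilin of neurons, had 13616 to 19790 counts. It was 628 (1E), 665 (2D), 682 (5D), and 642 (7D) CPM in WT males and 607 (2E), 604 (3E), 618 (4D), and 627 (6D) CPM in *Kdm5c*-KO males. Every *Kdm5c*-KO male was below every WT male, as for 3.87% of all genes, with 627.1 and 628.4 CPM in the closest pair. WT females had 650 (1D), 641 (3D), 628 (4E), and 622 (5E) CPM and *Kdm5c*-HET females 627 (6E), 614 (8E), 611 (9D), and 621 (9E) CPM, which overlap. The Log2FC was -0.091 (standard error 0.0343, 95% interval -0.16 to -0.020) in males, or 0.939-fold, and -0.039 (standard error 0.0343, 95% interval -0.11 to 0.032) in females. Without the 6 animals rich in *Ttr*, the Log2FC of *Jph4* in males was -0.047, with 2 WT males left. In these males *Rbfox3* was lower too, at 233 ± 16.3 CPM in *Kdm5c*-KO and 265 ± 14.2 CPM in WT animals (SD, n = 4 each, q = 0.0642 from edgeR). The part of neuron number in the values of *Jph4* was not tested.

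**Figure D3:**
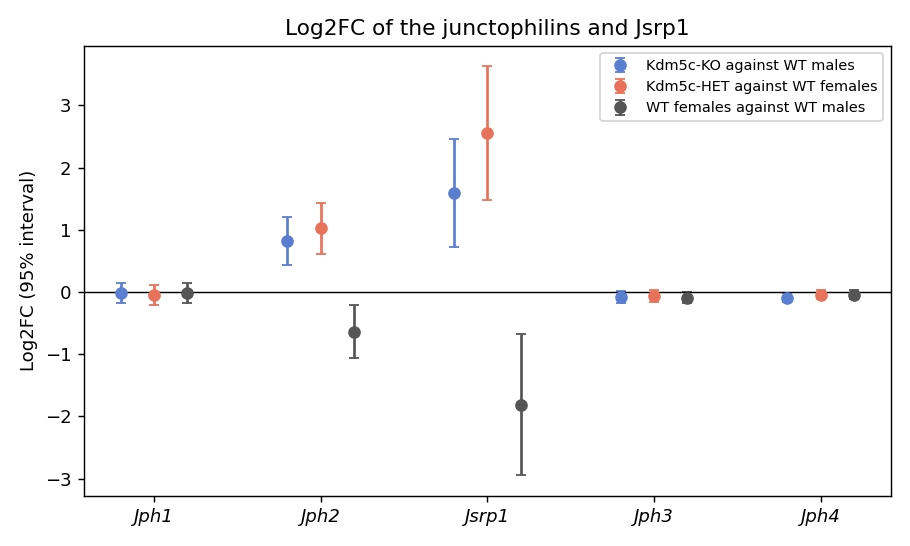
Log2FC (vertical axis) with its 95% interval for *Jph1*, *Jph2*, *Jsrp1*, *Jph3*, and *Jph4* in *Kdm5c*-KO against WT males, *Kdm5c*-HET against WT females, and WT females against WT males. For *Jph2* and *Jsrp1* both genotype intervals lie above 0 and the interval between the WT sexes below 0, while the points of *Jph1*, *Jph3*, and *Jph4* lie between -0.091 and -0.010.

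With edgeR (quasi-likelihood, Benjamini-Hochberg adjusted over all genes tested), 2 of the 5 members (*Jph2* and *Jsrp1*) were higher in *Kdm5c*-KO males at an adjusted p-value (q) under 0.1, as were 3.55% of all genes. The same 2 members were higher in *Kdm5c*-HET females, as were 0.481% of all genes. The call of *Jsrp1* was lost in males without WT male 2D, and in females without WT female 3D or *Kdm5c*-HET female 8E. That of *Jph2* was lost in females over only the 8 females. With 1 animal left out, 555 to 1129 genes were called in males in either direction (937 with all animals). In females it was 50 to 89 (91 with all animals). Higher calls in both sexes were made for 0.459% of all genes. In males edgeR called 0 members lower (1.69% of all genes), whereas 1 member, *Jph4*, was lower at an unadjusted p under 0.05 (2939 of the 17866 genes passed it in either direction) and was among the 1079 genes called by DESeq2. In females 0 members were called lower by edgeR (0.0280% of all genes) or by DESeq2 (136 genes called in either direction). At an unadjusted p under 0.05, 0 members were lower, while 1159 of the 17866 genes passed it in either direction. Every mutant was above every WT animal of its sex for *Jph2* and *Jsrp1* and for 1.16% of all genes. For 0 of the 5 members, and for 0.683% of all genes, were all 8 mutants above all 8 WT animals. Every *Kdm5c*-KO male was below every WT male for 1 member, *Jph4*, and for 3.87% of all genes. Since the members were chosen with these contrasts known, nothing is read from the counts. The median Log2FC of the 5 members was -0.010 in males and -0.039 in females, beside -0.0072 and -0.00080 over all genes tested. The difference in Log2FC between the sexes was called at q under 0.1 (edgeR) for 0 of the 5 members and for 0.0392% of all genes. At an unadjusted p under 0.05 it was 0 of the 5 members and 1138 of the 17866 genes. With DESeq2 it was called for 0 of the 5 members and 26 genes.

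The spread between animals was set beside the counting error. The counting error expected from the mean count alone was between 0.771% and 0.808% of the level for *Jph4*, between 12.6% and 20.5% for *Jph2*, and between 13.9% and 44.7% for *Jsrp1*. The coefficient of variation over the animals of a group was between 1.17% and 3.64% for *Jph4*, above the counting error in each group. For *Jph2* it was between 6.22% and 18.3%, below the counting error in 3 of the 4 groups, and for *Jsrp1* between 31.3% and 80.2%, above it in each group. The biological coefficient of variation that edgeR fitted was 3.83% for *Jph4*, 4.73% for *Jph3*, 6.90% for *Jph1*, 11.5% for *Jph2*, and 33.1% for *Jsrp1*, with a median of 8.95% over all genes tested. The reference table used here gives gene spans but no transcript lengths, so levels were not compared between genes.

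The WT animals of the 2 sexes were set side by side as a description too, since they belong to the groups on which the members were selected. *Jsrp1* had a lower mean in WT females, with a Log2FC of -1.81 (standard error 0.543, 95% interval -2.94 to -0.67). Of the 16 pairs of a WT female and a WT male, 15 had less *Jsrp1* in the female, and in the other WT female 1D (0.335 CPM) was above WT male 2D (0.299 CPM). With any 1 animal left out the Log2FC stayed between -2.304 and -1.435, and without the 6 animals rich in *Ttr* it was -2.70, with 2 WT animals left in each sex.

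*Jph2* had a Log2FC of -0.64 in WT females (standard error 0.203, 95% interval -1.06 to -0.21). All 4 WT females were below all 4 WT males, as was the case for 5.32% of all genes. *Jph3* had a Log2FC of -0.088 (95% interval -0.18 to 0.0040) and *Jph4* of -0.043 (95% interval -0.11 to 0.029). *Jph1* had a Log2FC of -0.013 (95% interval -0.17 to 0.15). For these 3 the groups of WT males and WT females overlapped.

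Other genes of the junctions where junctophilins act could be followed only in part. The lists held 47 genes of the skeletal muscle triad, the cardiac dyad, and the neuronal partners of junctophilins, and 3 of them (*Ryr1*, *Fkbp1b*, and *Vapb*) could be matched to an identifier. They are named because the study called them in these samples, so their calls are not independent evidence, and no share of a list is given. *Ryr1*, the ryanodine receptor of skeletal muscle, was 24.4 (1E), 24.1 (2D), 15.9 (5D), and 19.0 (7D) CPM in WT males and 50.0 (2E), 38.2 (3E), 32.2 (4D), and 23.3 (6D) CPM in *Kdm5c*-KO males. The groups overlap, since *Kdm5c*-KO male 6D was below WT males 1E and 2D. This animal had the lowest *Ryr1* but the highest *Jph2* and *Jsrp1* of its group. In that group the D animals, 4D and 6D, were both below the E animals in *Ryr1* and above them in *Jph2* and *Jsrp1*. Between the WT sexes *Ryr1* had a Log2FC of 0.36 in females (edgeR, q = 0.267, or 0.00639 with no filter on low counts), where *Jph2* and *Jsrp1* had negative values.

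The Log2FC of *Ryr1* was 0.79 in males (standard error 0.168; edgeR, q = 0.00971) and 0.35 in females (standard error 0.166, q = 0.770, or 0.0275 with no filter on low counts). In females it ranged from 24.7 to 28.5 CPM in WT and from 29.5 to 39.5 CPM in *Kdm5c*-HET animals, without overlap, as for 2.78% of all genes. Male minus female Log2FC was 0.44 (q = 0.778), and without the 6 animals rich in *Ttr* the Log2FC in males was 0.73 (q = 0.214), with 2 WT males left. *Fkbp1b*, whose product binds and steadies the cardiac ryanodine receptor, fell by 0.32 on the log2 scale in *Kdm5c*-KO males (q = 0.0415), and *Vapb*, a tether of the endoplasmic reticulum, by 0.16 (q = 0.0635). In *Kdm5c*-HET females their Log2FC was -0.030 and -0.029, with q of 0.998 and 0.991. The calls of *Fkbp1b* and *Vapb* in males were lost without the 6 animals rich in *Ttr*, and either was also lost without WT male 5D or 7D or *Kdm5c*-KO male 2E or 3E, and that of *Fkbp1b* without WT male 2D. The call of *Vapb* was lost as well over only the 8 males and at a threshold of 0.05.

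As *Jph2* and *Jsrp1* are best known from muscle, muscle markers are given beside them. Of 13 markers of skeletal muscle, only *Acta1*, the actin of skeletal muscle, could be matched, again because the study called it, and none of the 6 cardiac or the 5 smooth muscle and mural markers. *Acta1* was between 6.19 and 7.85 CPM in WT and between 14.7 and 19.7 CPM in *Kdm5c*-KO males. It was between 5.30 and 7.64 CPM in WT and between 9.96 and 11.4 CPM in *Kdm5c*-HET females. Its Log2FC was 1.31 in males (standard error 0.116; edgeR, q = 3.4e-07) and 0.78 in females (standard error 0.118, q = 0.00186), and the mutants were all above the WT animals in either sex (1.16% of all genes). Between the WT sexes the Log2FC of *Acta1* was -0.12 (q = 0.636). Muscle RNA in the samples was not tested as a source of *Jph2* and *Jsrp1*, since the defining markers other than *Acta1* were not matched.

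The genes that flank the members on the chromosome were taken from RefSeq. Of 12 flanking or overlapping genes, 2 could be matched to an identifier, again through the study's own list of called genes. *Amh*, the gene of anti-Müllerian hormone, lies 815 bases before *Jsrp1* (chr10:80805240-80807679). It had 23 (1E), 20 (2D), 36 (5D), and 13 (7D) counts in WT males and 60 (2E), 56 (3E), 54 (4D), and 56 (6D) counts in *Kdm5c*-KO males, without overlap (in CPM, all above in 5.04% of all genes). Its Log2FC in males was 1.27 (standard error 0.249; edgeR, q = 0.00536). Without the 6 animals rich in *Ttr*, the Log2FC was 1.425 and q was 0.101, with 2 WT males left.

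In females, *Amh* and *Jsrp1* differed in what they showed. *Amh* had 20 to 35 counts in WT females and 19 to 36 counts in *Kdm5c*-HET females, a Log2FC of 0.10 (95% interval -0.43 to 0.64, q = 0.995), where that of *Jsrp1* was 2.56. For *Amh*, male minus female Log2FC was 1.16 (edgeR, q = 0.631, standard error 0.356). The strand setting of the counting is not given in the sources used here, so reads that neighboring genes share cannot be told apart. *Tox2*, a transcription factor gene that lies 12070 bases before *Jph2* (chr2:163203058-163324172), had a Log2FC of 0.19 in males (standard error 0.0634, q = 0.115) and 0.062 in females (standard error 0.0637, q = 0.977). All 4 *Kdm5c*-KO males (28.1 to 31.6 CPM) were above all 4 WT males (23.8 to 27.7 CPM) for *Tox2*, as for 5.04% of all genes.

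**Figure D4:**
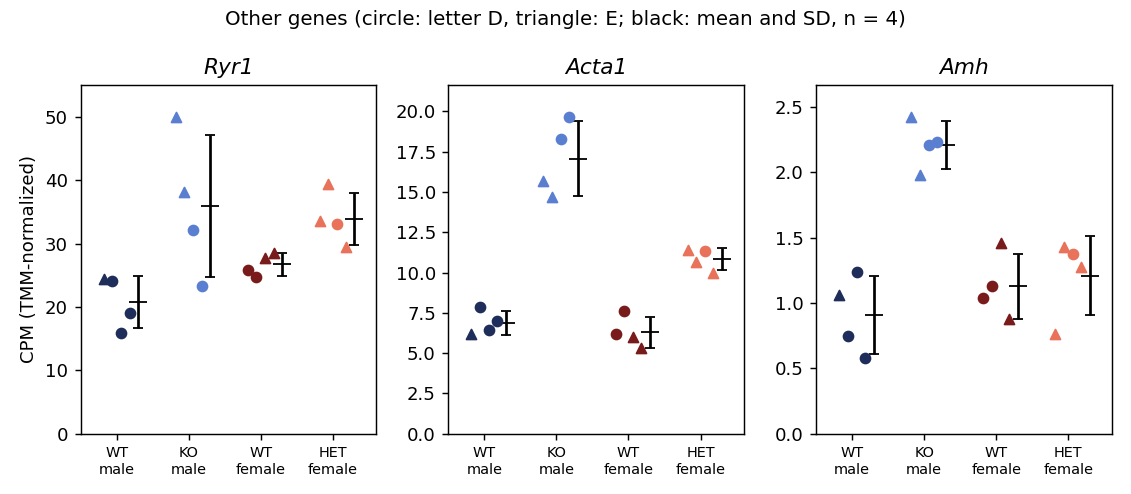
CPM (vertical axis, TMM-normalized, starting at 0 with its own scale for each gene) of *Ryr1*, *Acta1*, and *Amh* in each of the 16 animals by group, with circles for label letter D, triangles for E, and the mean and SD in black. *Acta1* is higher in the mutants of either sex, *Amh* stands apart in *Kdm5c*-KO males (54 to 60 counts) but not in *Kdm5c*-HET females (19 to 36 counts), and *Ryr1* spreads from 23.3 to 50.0 CPM in *Kdm5c*-KO males.

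The genes whose log2 CPM over the 16 animals was most like that of a member are given as a description by Pearson's r. The points share library, depth, sex, and genotype, and a symbol is known mainly for genes that the study called. The 3 genes most like *Jph2* included *Amn* (r = 0.947), a partner of the vitamin B12 receptor, and *Pcbd1* (r = 0.934), an enzyme of tetrahydrobiopterin recycling. The Log2FC of *Amn* was 1.29 in males and 0.87 in females, and that of *Pcbd1* 1.13 and 0.89. The 3 most like *Jsrp1* included *Rcn1* (r = 0.889), a calcium-binding protein of the endoplasmic reticulum, and *Hexim2* (r = 0.868), an inhibitor of transcription elongation. *Rcn1* had smaller fold changes than *Jsrp1*, with a Log2FC of 0.16 in males and 0.21 in females. The remaining gene of either set has no symbol in the tables used. The 3 most like *Jph4* were *Scrt1* (r = 0.924), a transcriptional repressor of neurons, *Stx1a* (r = 0.923), a syntaxin of synaptic vesicle release, and *Camkv* (r = 0.912), a pseudokinase of neurons. Each of these had a negative Log2FC in males (-0.31, -0.23, and -0.15) and in females (-0.16, -0.064, and -0.015). The 3 most like *Jph3* (r = 0.920 to 0.950) have no symbol in these tables.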

How the data were processed

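Libraries were poly(A)-enriched with a directional kit and sequenced as paired-end reads. The authors aligned them to mm10 (STAR 2.5.3a), dropped duplicates and reads with several alignments, and summed the rest by gene (featureCounts, Subread 1.5.0). The authors deposited these counts without normalization. Tests used edgeR 4.0.16 in R 4.3.3: filterByExpr, TMM, glmQLFit with a mean for each of the 4 groups of the 16 animals, glmQLFTest, and Benjamini-Hochberg adjustment at 0.1. The standard error is the Log2FC divided by the root of F, and the 95% intervals use it. Log2 CPM used a prior count of 2. Chi-square per gene in the 24 pairs of same-group animals was 2.85 to 14.8, above sampling noise, so each animal counted as 1 replicate. In *Kdm5c*-KO males it was 4.41 and 5.03 within a label letter and 9.16 to 14.8 across letters. In WT females it was 3.06 and 5.08 within and 6.98 to 12.5 across, and in *Kdm5c*-HET females 2.85 to 3.63 and 6.04 to 8.23. In WT males these ranges overlapped (3.69 to 7.16 and 5.89 to 7.33). Symbols of 1015 genes came from the study's tables of called genes (which also hold the authors' fold changes and p-values, not used), those of *Jph1* and *Jph3* from their given Ensembl identifiers, and positions from RefSeq. Members and lists were chosen with earlier results of these data known. The comparison of WT females with WT males was planned as a test, but it is reported without p-values for the members, since the selection used these groups. The genes named are the members, the called and the most abundant matched genes of each list, flanking genes, and the 3 most similar genes for 4 members. Alternatives were DESeq2 1.42.0, its size factors, other filters, fewer animals, and the label letter. Sequences are not used here.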

Additional observations from a re-analysis of the deposited data

How the results depend on the processing

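In the genotype contrasts, the Log2FC of *Jph2* and *Jsrp1* was positive in every alternative that could be run. In males it was between 0.72 and 0.90 for *Jph2* and between 1.23 and 1.86 for *Jsrp1*. In females it was between 0.91 and 1.12 for *Jph2* and between 2.18 and 3.05 for *Jsrp1*. For both genes every mutant was above every WT animal of its sex, so leaving animals out could hardly change this sign. *Jsrp1* could not be fitted with at least 10 counts in every animal, nor between the WT sexes over only the 8 animals compared. Both members were called in males and in females with DESeq2, DESeq2's size factors, no filter, and the letter as a covariate. With the letter as a covariate, 1468 genes were called in males (937 without it) and 157 in females (91 without it). In males the call of *Jsrp1* was lost without WT male 2D, and in females without WT female 3D or *Kdm5c*-HET female 8E, and that of *Jph2* in females over only the 8 animals compared. DESeq2 called *Jph4* in males. Without the 6 animals with over 1000 counts of *Ttr*, chosen after seeing the data, 0 members were called, with 2 WT animals left in each sex and 2 *Kdm5c*-HET females, and that fit called 224 genes for males (937 with all animals) and 33 for females (91 with all animals). The Log2FC in that fit was -0.047 for *Jph4* in males, and 0.034 for *Jph1* and -0.027 for *Jph3* in females, beyond 1 SD from the values reported. Between the WT sexes, that of *Jsrp1* was -2.70 in that fit. With each animal left out in turn it was -2.304 to -1.435 for *Jsrp1*, -0.73 to -0.53 for *Jph2*, and -0.053 to 0.025 for *Jph1*, which changed sign. For *Jph2* it was -0.63 there with at least 10 counts in every animal. No other length could be tried, since no transcript lengths were used. Low counts limit *Jsrp1* and *Jph2*.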
